A study of Mus musculus with 6 samples.

Results

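The miR-143 and miR-145a cluster is a pair of microRNA hairpins that lie next to each other on mouse chromosome 18 and are widely used as markers of smooth muscle. Its members were taken by name, as every sense entry called Mir143, Mir145 or Mir145a, and this gave 4 of the 1102 entries in each count file. The 4 entries are the 5p and the 3p arm of each hairpin, and they are 4 of the 977 mature miRNAs left after entries of one miRNA were summed.

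Heart RNA of male mice of the wild-type strain C57BL/6J, all 18 weeks old, was sequenced as 6 libraries. There was no treatment, no mutant and no second group. The samples are called hearts 1 to 6 here, and the labels say only that they are separate samples. The tissue field of the labels gives the whole heart, whereas the extraction protocol gives the frozen apex of the ventricles, so the sampled region is uncertain between these descriptions. Small RNA was ligated to adapters at both ends, reverse transcribed, amplified and size-selected before sequencing. The deposited values are raw counts of reads per miRNA, and they summed to 3966170 to 6007325 reads per library.

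MicroRNAs are cut from hairpin precursors, first by Drosha in the nucleus and then by Dicer in the cytoplasm, and either strand of the cut duplex can be loaded into an Argonaute protein and kept. The arm that is kept guides Argonaute to messenger RNAs through its seed, the bases near its 5′ end, and the other arm is mostly degraded. miR-143 and miR-145 are processed from a common primary transcript in smooth muscle cells and pericytes, where serum response factor and its partner myocardin drive their transcription. In mice they are known for keeping vascular smooth muscle in its contractile state, and KLF4 and KLF5, which oppose that state, are known targets of miR-145. Cardiac muscle cells make little of either, so in heart tissue both are commonly read as products of vessels.

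In the GRCm38 build, to which the submitters' processing notes refer, both hairpins are on the minus strand of chromosome 18. The GENCODE gene Mir143 runs over bases 61649196 to 61649258, with miR-143-5p at 61649238 to 61649258 and miR-143-3p at 61649199 to 61649219. The gene Mir145a runs over bases 61647825 to 61647894, with miR-145a-5p at 61647866 to 61647888 and miR-145a-3p at 61647830 to 61647850. The hairpins are separated by 1301 bases, and transcription on this strand meets Mir143 before Mir145a. No exon of another GENCODE gene covers either hairpin. Carmn, a long noncoding RNA of the same strand that is known for smooth muscle and cardiac functions, covers bases 61649625 to 61665537 in GENCODE, ending 366 bases before Mir143 in the direction of transcription, while the RefSeq model of Carmn spans both hairpins and carries the alias Mir143hg. The files held no antisense entry at the cluster. miR-145b, a related miRNA from another place on the same chromosome, was read 3 times in all, once in each of 3 libraries, so it added next to nothing to the counts given here.

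miR-143-3p was one of the most abundant miRNAs of the heart, and the 3 other arms were far below it. Levels are given in CPM, the counts of a miRNA per 1000000 miRNA reads of its library, and a mature miRNA is read whole, so no correction for length is needed. In hearts 1 to 6 miR-143-3p was at 88290, 82644, 83408, 64823, 112465 and 102158 CPM, with heart 5 the highest and heart 4 the lowest. It averaged 88965 ± 16616 CPM (SD, n = 6), which was 8.90% ± 1.66 of all miRNA reads, and it held rank 4 of 977 by mean level and a rank from 3 to 5 in single hearts. Above it, miR-22-3p and miR-486-5p were higher in 6 of 6 hearts. Its nearest neighbour, the muscle miRNA miR-133a-3p, averaged 89003 ± 4407 CPM and was higher in 3 of 6 hearts, so these 2 miRNAs had no stable order. miR-126a-5p, made in endothelium, averaged 77582 ± 4338 CPM and was below miR-143-3p in 5 of 6 hearts. miR-30a-5p, next in rank, was below it in every heart.

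miR-145a-5p, the arm that carries the known smooth muscle activity of miR-145, was at 780, 650, 690, 780, 1015 and 558 CPM in hearts 1 to 6. Heart 5 stood above the rest and heart 6 was lowest. Its mean of 745 ± 157 CPM (SD, n = 6) gave rank 65, and miR-148b-3p, one place above, was higher in 4 of 6 hearts. The opposite arm miR-145a-3p was at 590, 501, 523, 556, 580 and 452 CPM, a mean of 534 ± 52.4 CPM and rank 69. Its range was the narrowest of the cluster, the highest heart being 1.31 times the lowest, against 1.82 for miR-145a-5p and 1.73 for miR-143-3p. miR-103-3p, directly above miR-145a-3p, was higher in 6 of 6 hearts, while miR-199a-5p, directly below, was higher in 1.

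miR-143-5p, the arm of miR-143 that is mostly discarded, was read 63, 70, 81, 84, 123 and 120 times in hearts 1 to 6, or 13.2, 14.1, 19.2, 21.2, 20.5 and 21.4 CPM. Hearts 1 and 2 were low and the others lay close together. The mean was 18.3 ± 3.66 CPM (SD, n = 6), at rank 217, where the miRNAs around it crossed it from heart to heart: miR-5099-3p, one place above, was higher in 2 hearts, and miR-434-5p, one place below, in 3. A miRNA with no read would be under 0.499 to 0.756 CPM in these libraries, taking 3 reads as the limit, so all 4 arms were clear of the detection limit in every heart. Reads carried no molecular identifiers, so intervals and limits from counts cover counting error only.

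**Figure D1:**
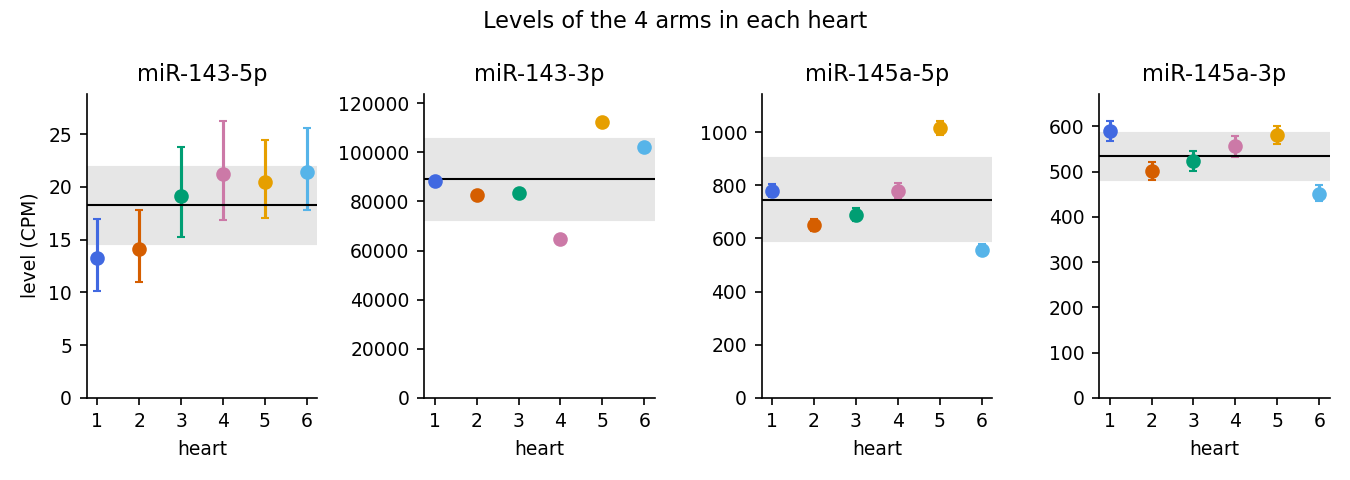
Level of each arm in CPM (vertical axis, starting at 0 and scaled for each arm) in hearts 1 to 6. Points are single libraries with their 95% exact Poisson interval, the line is the mean and the grey band is 1 SD on either side. miR-143-3p is highest in heart 5 (112465 CPM) and lowest in heart 4 (64823 CPM), whereas miR-145a-5p is highest in heart 5 (1015 CPM) and lowest in heart 6 (558 CPM).

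The levels of miRNAs of the cell types a heart holds are given beside the labelled tissue. No other tissue was compared, so their presence is no test of that label. Bulk RNA also cannot tell fewer cells of a type from less RNA per cell. All 5 listed miRNAs of cardiac muscle were present, and their summed level was 99062 ± 4630 CPM (SD, n = 6), led by miR-133a-3p. The endothelial pair miR-126a-5p and miR-126a-3p summed to 89717 ± 5366 CPM. The lists for fibroblasts and mesenchyme (3902 ± 1043 CPM), red cells (3947 ± 1431 CPM) and leukocytes (2569 ± 348 CPM) had all their miRNAs present as well. The files hold miRNAs only and no messenger RNA of a smooth muscle protein, so the smooth muscle origin of the cluster is background and was not measured.

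Among 16 other miRNAs studied in smooth muscle growth or differentiation, all 16 were in the files with a mean of at least 10 reads. Of these, miR-22-3p was above miR-143-3p in all 6 hearts, miR-133a-3p crossed it, and the remaining 14 were below it in 6 of 6 hearts. Against miR-145a-5p the order was the other way round for most: 10 of the 16 were higher in every heart, 1 crossed it and 5 were lower in every heart. The 5 lower ones were miR-221-3p (233 ± 23.9 CPM) and miR-222-3p, a pair known for promoting smooth muscle proliferation, together with miR-29b-3p, miR-31-5p and miR-128-3p. None of these miRNAs is made by smooth muscle alone, and most are made by cardiac muscle or endothelium too.

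The 2 hairpins kept their arms in very different proportions: miR-143 gave almost no 5p arm, and miR-145a gave both arms in similar amounts. For miR-143 the 5p arm was 0.0150%, 0.0171%, 0.0230%, 0.0327%, 0.0182% and 0.0210% of the hairpin's reads in hearts 1 to 6, a mean of 0.0211% ± 0.00631 (SD, n = 6). The share was highest in heart 4, where miR-143-3p was lowest. Over all hearts there were 541 reads of miR-143-5p, against 2688484 of miR-143-3p. For miR-145a the 5p arm was 56.9%, 56.5%, 56.9%, 58.4%, 63.6% and 55.3% of the hairpin's reads, a mean of 57.9% ± 2.97. The 5p arm was the larger in every heart, and heart 5 stood above the other 5, which lay between 55.3% and 58.4%.

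**Figure D2:**
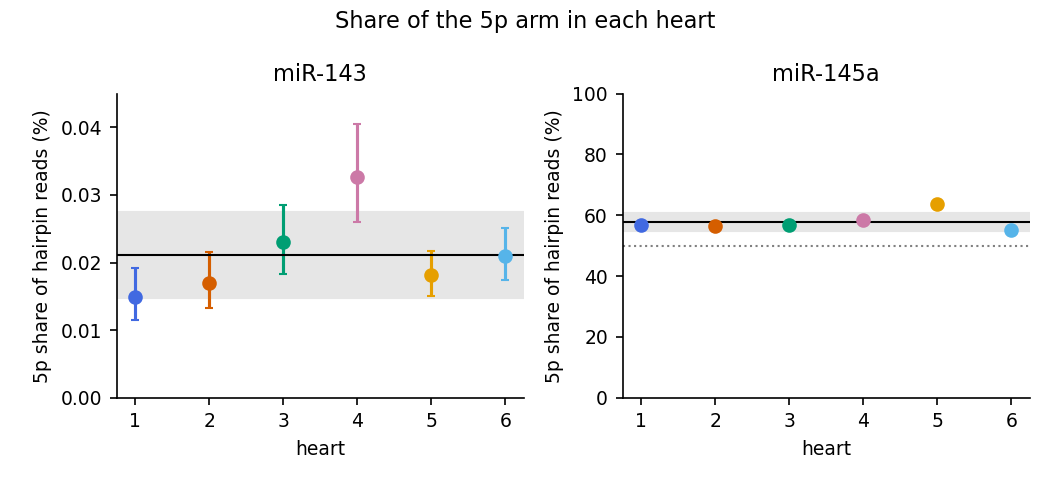
Share of the 5p arm in the reads of each hairpin (vertical axis, percent, starting at 0, with different scales) in hearts 1 to 6. Points are libraries with their 95% exact binomial interval, the line is the mean, the grey band is 1 SD on either side and the dotted line marks 50%. Heart 4 is highest for miR-143 (0.0327%) and heart 5 for miR-145a (63.6%).

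The arms were compared in 1 fit over 212 hairpins with a mean of at least 10 reads, by the quasi-likelihood test of edgeR, each library being a block. In this fit 89.6% of hairpins had an adjusted p (Benjamini-Hochberg) under 0.05 and at least a 2-fold difference between arms, and 95.8% had such a p at any ratio, so a difference between arms is the usual state and is no feature of this cluster; 41.0% had more 3p and 48.6% more 5p. The fitted log2 ratio of 5p over 3p was −12.25 for miR-143 (SE 0.14), with less 5p in 6 of 6 hearts and an exact sign-flip permutation p of 0.0312, the smallest that 6 libraries allow. By size, 2 of the 212 hairpins lay further on the 3p side, miR-23a (−13.28) and miR-23b (−12.46), and miR-130a (−11.34) came next after it. Those of miR-23a and miR-23b rested on 4 and 7 reads of the 5p arm over all hearts, against 541 for miR-143. The SD of the miR-23b ratio over hearts was 1.17, so the order of miR-23b and miR-143 was not resolved. Each SE given here is the log2 ratio divided by the square root of the test's F statistic. It is no direct estimate of error and may be too small where an arm has few reads. DESeq2 gave an SE of 0.18 for miR-143. The ratio of miR-145a was 0.46 (SE 0.10, adjusted p = 1.92e-06 by edgeR), a 1.38-fold excess of 5p present in 6 of 6 hearts. It passed the p threshold but not the 2-fold threshold, and 22 of the 212 hairpins were within 2-fold, 13 of them with a p that passed. With 8 hairpins nearer to equal arms, miR-145a stood beside miR-877, miR-455 and let-7d in this order, where the median difference between arms over all hairpins was 32.0-fold. Adapters join different miRNA ends with unequal efficiency, and the part of this in the arm ratios was not tested.

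**Figure D3:**
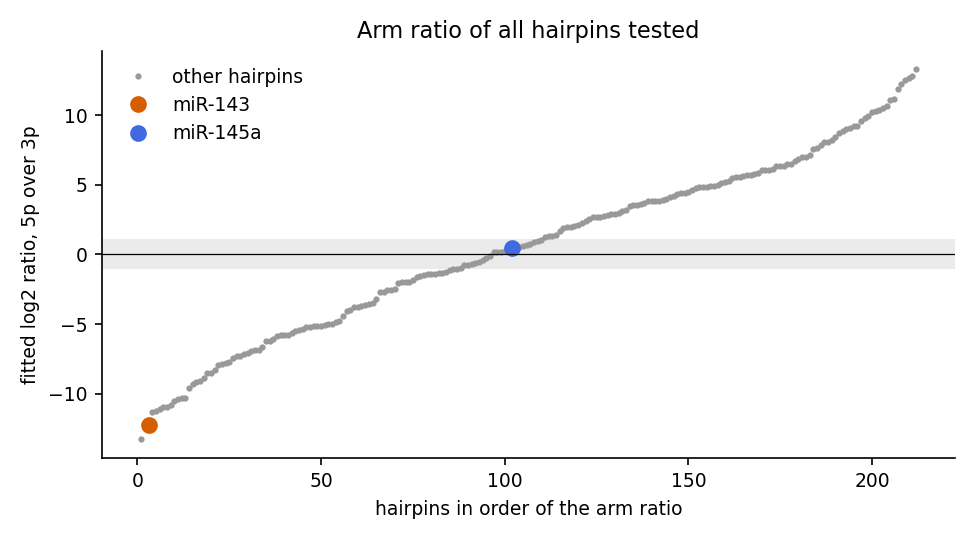
Fitted log2 ratio of 5p over 3p reads (vertical axis) of the 212 hairpins tested, in order of that ratio from most 3p to most 5p (horizontal axis). Grey points are other hairpins and the grey band covers ratios within 2-fold. miR-143 (−12.25) is near the 3p end, with 2 hairpins beyond it, and miR-145a (0.46) lies inside the band.

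How far the arm share varied from heart to heart was set against counting noise with a chi-square test of arm by library over the same hairpins. This spread was beyond counting noise at an adjusted p under 0.05 for 26.9% of the 212 hairpins, and for both hairpins of the cluster. For miR-143 the chi-square was 6.08 times its degrees of freedom (adjusted p = 8.95e-05), and without heart 4 it was 2.19 times (adjusted p = 0.203). For miR-145a it was 30.0 times (adjusted p = 2.77e-29), and without heart 5 it was 2.78 times (adjusted p = 0.0823). Each call therefore rested on 1 heart, a different one for each hairpin. On the log2 scale the SD of the arm ratio was 0.40 for miR-143, where the rarer arm had only 63 to 123 reads, and 0.18 for miR-145a. Over the 54 hairpins with at least 500 reads of both arms the median SD was 0.23; 51 of them had a lower SD than miR-143, and 14 a lower one than miR-145a. Without heart 4 the SD of miR-143 was 0.24, with 33 of the 54 lower, and without heart 5 that of miR-145a was 0.066, with 1 lower.

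The same comparison for levels found 249 of 346 miRNAs, or 72.0%, with more spread between hearts than counting gives. All 4 arms were among them. miR-143-5p was the nearest to counting noise, at 3.59 times the degrees of freedom (adjusted p = 0.00481), and without heart 1 it was at 2.36 times (adjusted p = 0.0716). After TMM scaling, edgeR's correction for library composition, the coefficient of variation of the level was 18.5% for miR-143-5p, 20.2% for miR-143-3p, 18.0% for miR-145a-5p and 8.52% for miR-145a-3p, against a median of 16.9% over the 346 miRNAs. Among the 95 miRNAs that averaged 1000 or more reads, where counting adds little, the median was 9.65%. There, 82 had a lower coefficient than miR-143-3p, 78 a lower one than miR-145a-5p and 34 a lower one than miR-145a-3p. The place of both dominant arms rested on 1 heart each. Without heart 4 the coefficient of miR-143-3p was 12.2%, with 57 of the 95 lower, and without heart 5 that of miR-145a-5p was 11.1%, with 63 of the 95 lower.

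Although the hairpins are neighbours, miR-143 exceeded miR-145a by a wide margin that itself moved from heart to heart. The ratio of miR-143 over miR-145a reads, both arms summed, was 64.5, 71.9, 68.8, 48.5, 70.5 and 101 in hearts 1 to 6. Hearts 1, 2, 3 and 5 lay close together, with heart 4 low and heart 6 high, a range of 2.09-fold around a mean of 70.9 ± 17.1 (SD, n = 6). Heart 4 had the least miR-143-3p of all hearts, and heart 6 the least of both arms of miR-145a. For the dominant arms alone, miR-143-3p over miR-145a-5p was 113, 127, 121, 83.1, 111 and 183, a mean log2 ratio of 6.90 ± 0.37. All 6 pairs among the 4 arms differed in the same direction in 6 of 6 hearts, each with an exact sign-flip permutation p of 0.0312, unchanged by the adjustment over the 6 pairs. Any 2 miRNAs that keep their order in every heart give this p, so it marks no feature of this cluster. The share of other miRNA pairs that do so was not computed. Among the 6 pairs, the smallest gap was the 1.38-fold of miR-145a-5p over miR-145a-3p. The mean log2 ratio of miR-143-5p over miR-145a-3p was −4.88, so even the lesser arm of miR-145a was well above the lesser arm of miR-143.

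The ratio was set beside those of other neighbouring hairpins, taken as pairs on the same strand within 10000 bases with at least 100 reads each. There were 42 such pairs, with a median fold between the hairpins of 3.84. The 69.3-fold geometric mean of miR-143 over miR-145a was exceeded by 2 pairs, miR-29a with miR-29b and miR-15b with miR-16. Both of these hold a miRNA with another gene copy in the files, miR-29b and miR-16, and their folds depend on the copy to which the authors' counting gave its reads. The SD of its log2 ratio over hearts was 0.34, where the pairs ranged from 0.05 to 0.35 with a median of 0.18, and 2 pairs had a larger SD. Without heart 6 it was 0.23 and without heart 4 it was 0.26, each with 31 of the 42 pairs lower. These are descriptions of 6 libraries, and pairs of 1 cluster share hairpins.

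**Figure D4:**
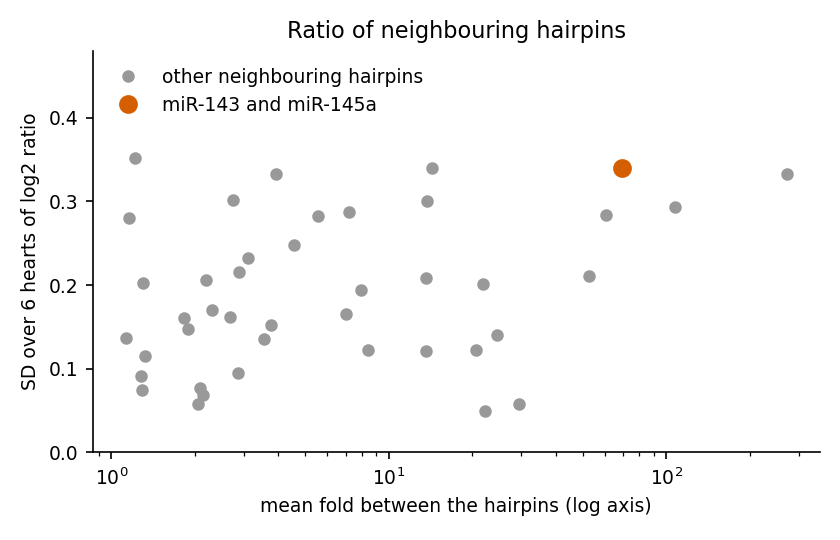
SD over the 6 hearts of the log2 ratio between neighbouring hairpins (vertical axis) against the mean fold between them (horizontal axis, log scale). Each point is 1 of 42 pairs on the same strand. The pair of miR-143 and miR-145a, in orange, lies at 69.3-fold with an SD of 0.34, where the median pair has 0.18.

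Co-variation over hearts was read from log2 CPM after TMM scaling, for all 6 pairs of arms, and 0 of 6 pairs passed at an adjusted p under 0.05 (exact permutation of pairings). At an unadjusted p under 0.05 the count was also 0. miR-143-3p and miR-145a-5p had Pearson r = 0.17 (exact permutation p = 0.714, adjusted p = 0.893) and Spearman rho = 0.20 (exact permutation p = 0.714). Without hearts 4 and 5, the farthest in miR-143-3p, r was −0.62. Heart 5 was the highest in both arms, while heart 6 was second in miR-143-3p and lowest in miR-145a-5p; without heart 5, r was −0.39, and without heart 6 it was 0.66. The relation between these arms therefore had no settled sign in 6 hearts. The arms of miR-145a had the highest r of the 6 pairs, 0.74, with rho = 0.77 (exact permutation p = 0.103 for each, adjusted p = 0.308 for r and 0.617 for rho), and r = 0.91 without hearts 5 and 6. The pair with the smallest p ran the other way: miR-143-5p and miR-145a-3p had r = −0.73 (exact permutation p = 0.101, adjusted p = 0.308) and rho = −0.60 (exact permutation p = 0.242, adjusted p = 0.714). Its r stayed between −0.90 and −0.41 without each heart in turn, with −0.41 for heart 1, and was −0.75 without hearts 1 and 2. It was −0.26 when library totals replaced TMM scaling, and −0.48 with totals that left out miR-143-3p, miR-486-5p and miR-22-3p. The arms of miR-143 had r = 0.13 and rho = 0.37 (exact permutation p = 0.893 and 0.497, adjusted p = 0.893 and 0.714). No batch was given in the labels, so no value within a batch could be formed.

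The 5 miRNAs whose levels followed miR-145a-5p most closely are shown by their mature RefSeq sequences (GRCm38.p6), 5′ to 3′. The seed, bases 2 to 8, is in capitals. They were picked as the highest Pearson r among the 204 miRNAs that averaged 100 or more reads. A closer match than that of the cluster partner was therefore built into the choice.
miR-199a-5p: cCCAGUGUucagacuaccuguuc
miR-300-3p: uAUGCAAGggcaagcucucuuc
miR-23a-3p: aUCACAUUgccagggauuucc
miR-208b-3p: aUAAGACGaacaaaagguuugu
miR-199b-3p: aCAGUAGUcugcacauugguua
No seed is shared among the 5. The 22 bases of miR-199b-3p are also those of miR-199a-3p, so a read of either cannot be given to 1 gene.

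The closest was miR-199a-5p, a miRNA of fibroblasts and other mesenchymal cells, with r = 0.99 over 6 hearts and a lowest r of 0.97 when 1 heart was left out. In hearts 1 to 6 it was at 536, 470, 505, 541, 706 and 384 CPM, highest in heart 5 and lowest in heart 6 as miR-145a-5p was. The ratio of miR-145a-5p over miR-199a-5p stayed between 1.37 and 1.46 in the 6 hearts, a mean of 1.42 ± 0.0388 (SD, n = 6). The ratio of miR-143-3p over miR-145a-5p ranged 2.20-fold. Because miR-199a-5p was picked as the closest of 204 miRNAs, the 2 ranges are no fair comparison. The others were miR-300-3p (r = 0.96), miR-23a-3p (0.95), miR-208b-3p (0.91), which is encoded in a myosin gene of cardiac muscle, and miR-199b-3p (0.91). In this order, their lowest r with 1 heart left out was 0.94, 0.91, 0.85 and 0.72. miR-199b-3p was the least firm, with its 0.72 without heart 5 and a rho of 0.60 over all hearts. The median r of miR-145a-5p over the 204 miRNAs was −0.08. These r values were the highest of 204, all points share the library scaling, and they carry no test.

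**Figure D5:**
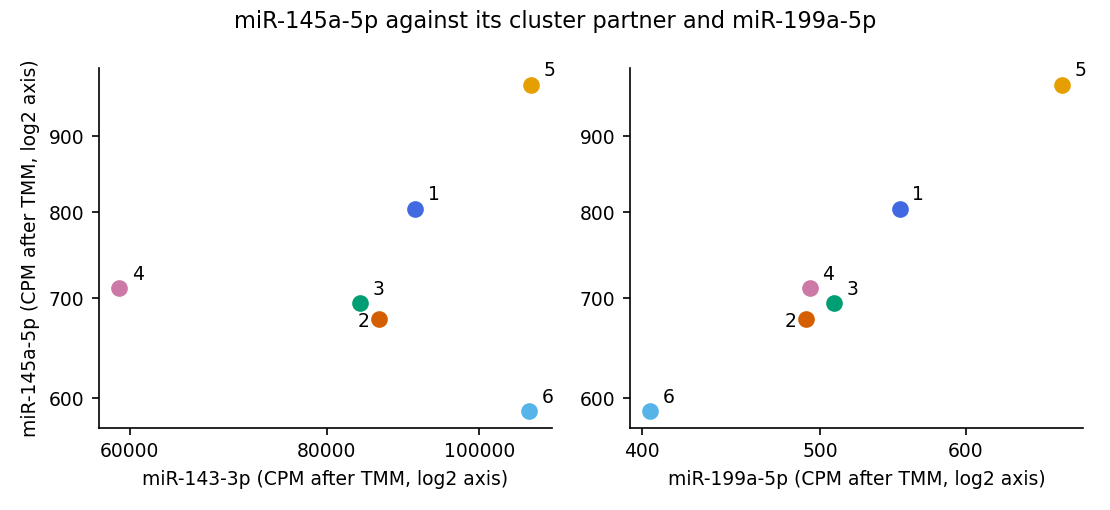
Level of miR-145a-5p (vertical axis) against miR-143-3p (left) and miR-199a-5p (right), in CPM after TMM scaling on log2 axes that do not start at 0. Each point is 1 heart with its number. The points of miR-199a-5p, picked for the highest r of 204 miRNAs, lie near a line (r = 0.99). Those of miR-143-3p, the fixed cluster partner, do not (r = 0.17): heart 6 is close to heart 5 in miR-143-3p and lowest in miR-145a-5p.

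The miRNAs most like miR-143-3p were other ones: miR-1249-3p (r = 0.97, and 0.85 without heart 4), miR-203-3p (0.87), miR-1943-5p (0.86), miR-490-3p (0.85) and miR-16-5p (0.83). miR-490-3p, which has been studied in smooth muscle, was at 278, 249, 283, 269, 338 and 274 CPM in hearts 1 to 6. In CPM before TMM scaling it was highest in heart 5 as miR-143-3p was. On that scale its lowest heart was heart 2, and that of miR-143-3p was heart 4. The r rests on levels after TMM scaling, where its order of hearts was close to that of miR-143-3p (rho = 0.94). Without heart 4 the r of miR-490-3p was 0.71. miR-1943-5p depended most on 1 library, with r = 0.43 without heart 4. The median r of miR-143-3p over the 204 miRNAs was 0.10.

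The miRNAs of other cell types were set against both dominant arms in 10 pairs, and 0 of 10 passed at an adjusted p under 0.05. The largest r was that of miR-145a-5p with the summed level of the fibroblast and mesenchymal list, 0.88 (exact permutation p = 0.0222, adjusted p = 0.222), with rho = 0.60 (exact permutation p = 0.242, adjusted p = 0.604) and r = 0.78 without hearts 5 and 6. This was the single pair with an unadjusted p under 0.05, and its r ran from 0.61 to 0.96 without each heart in turn. That list includes miR-199a-5p and miR-199b-3p and ranged from 3236 to 5979 CPM, with heart 5 the highest. Most of its mean of 3902 CPM was counted as miR-199a-3p, at 3121 CPM. This r therefore mainly reflects that sequence, which miR-199b-3p shares. miR-143-3p had r = 0.57 with the same list (exact permutation p = 0.233, adjusted p = 0.583), and −0.23 without hearts 4 and 5. miR-145a-5p had r = −0.78 with the cardiac muscle list (exact permutation p = 0.0611, adjusted p = 0.306), and −0.16 without hearts 5 and 6. The remaining r values lay between −0.60 and 0.41. The part of different cell content of the samples in the levels of the cluster was not tested.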

How the data were processed

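Small RNA libraries of 6 heart samples were analysed. The deposited values are raw counts of reads per miRNA arm, made by the authors; the submitters' processing notes name GRCm38, DESeq and edgeR, and the aligner is not given in the sources used here. Of 1102 entries per file, 76 were on the strand opposite to the named hairpin: 37 lay on a hairpin of that strand and were added to it (13.2% of counts on average, none at the cluster), and 39 were left out (at most 0.000725% of a library). CPM used the library's summed counts. Arms were compared with edgeR 4.0.16 (R 4.3.3; filter of a mean of at least 10 reads, adjusted p under 0.05 and 2-fold), with DESeq2 1.42.0 as an alternative; ratios (prior count 0.5) and correlations (TMM log2 CPM, prior count 1) with exact permutation tests in SciPy 1.17.1, two-sided. The library is the block in the arm fit because both arms were counted in it. The fits were tested on simulated data. The chi-square test covers counting error only, so its p-values set the spread between hearts against that error alone. Nothing in the labels says more of the replicates than that they are separate samples. All other p-values therefore rest on the spread between these samples. Those of edgeR also pool the estimate of that spread over all hairpins fitted, so they do not measure 1 hairpin alone. miRNAs were named by fixed rules: all arms of the cluster, list members, the 5 most similar to an arm, and neighbours in rank of level or arm ratio; the pairs of neighbouring hairpins named were chosen after their values were seen. The members and lists were chosen with earlier results of these data known.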

Additional observations from a re-analysis of the deposited data

Results flagged for a closer look

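Of 20 values checked over the 6 hearts, 3 had 1 heart far from the other 5, judged by its gap to the nearest divided by the whole range; chance gives this in about 1 in 20 groups. All were heart 5. The 5p share of miR-145a was 63.6% there (gap over range 0.627), and the ratio of miR-145a-5p over miR-145a-3p, which is the same measurement in another form, was 1.75 (0.674). The summed level of the fibroblast and mesenchymal miRNAs was 5979 CPM in that heart (0.775).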

How the results depend on the processing

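The arm ratio of miR-143 stayed between −12.38 and −12.17 and that of miR-145a between 0.39 and 0.49 under all alternatives run and without each heart in turn. The fit without the replicate block gave −12.25 for miR-143 and 0.48 for miR-145a (adjusted p = 0.00119 by edgeR), so it changed neither call. Without 1 heart, the log2 ratio of miR-143-3p over miR-145a-5p was 6.78 to 7.01, and the exact permutation p cannot go below 0.0625 with 5 libraries. The spread of arm shares over degrees of freedom ran from 2.19 (without heart 4) to 7.62 for miR-143 and from 2.78 (without heart 5) to 37.5 for miR-145a. The coefficients of variation and SDs without single hearts, given beside their results, were added after seeing the data. Among correlations, none of which passed, signs changed. Leaving out 1 heart gave r of −0.39 to 0.66 for miR-143-3p with miR-145a-5p, −0.25 to 0.61 with miR-145a-3p and −0.20 to 0.61 with miR-143-5p, and −0.77 to 0.19 for miR-143-5p with miR-145a-5p. For miR-143-3p it gave −0.25 to 0.59 with the cardiac muscle list, −0.15 to 0.29 with the endothelial list and −0.59 to 0.74 with the red cell list, and for miR-145a-5p −0.65 to 0.81 with the leukocyte list. Library totals in place of TMM gave −0.12 for miR-143-3p with miR-145a-3p, 0.052 for miR-143-5p with miR-145a-5p, and −0.75 and −0.49 for miR-143-3p with the cardiac muscle and endothelial lists. TMM from all miRNAs gave −0.012 for miR-143-3p with miR-145a-3p, and −0.070 and −0.013 with those lists. With the same lists, RLE factors gave −0.090 and −0.022, and totals without miR-143-3p, miR-486-5p and miR-22-3p −0.27 and −0.15. The cause was not tested.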

Other observations

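The lesser arms had other closest miRNAs than the dominant ones. miR-143-5p was nearest to miR-423-5p (r = 0.91 over 6 hearts, among 204 miRNAs), miR-122-5p (0.90), a miRNA of liver, and miR-3057-5p (0.87). miR-145a-3p was nearest to miR-27a-3p (0.90), miR-17-5p (0.89) and miR-19b-3p (0.88). miR-27a-3p comes from the cluster of miR-23a, whose 3p arm was among the nearest to miR-145a-5p. These values are descriptions, and miR-143-5p rested on 63 to 123 reads per heart.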
